A study of Mus with 8 samples.

Results

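The genes described here are 9 members of the Hedgehog pathway, measured by 11 of the 56605 probes of a mouse expression array: the ligands Shh and Ihh, the receptor Ptch1, the co-receptor Gas1, the signal transducer Smo, the decoy receptor Hhip and the transcription factors Gli1, Gli2 and Gli3. They were chosen by name, through the transcript accession that the array design gives for each probe, and all 9 were among the 31281 genes and transcripts tested. The MC38 line, which derives from a mouse colon carcinoma, was transplanted under the skin, and whole tumours were profiled on 1-colour Agilent arrays 25 to 30 days after transplantation. In 4 tumours the hosts were Ext1S100a4Cre mice, which carry a floxed Ext1 gene on both alleles and a Cre recombinase under the S100a4 promoter. In the other 4 the hosts were WT (B6) mice. Ext1 encodes a polymerase that builds heparan sulfate chains. All 8 tumours came from the same transplanted line, which carries no host allele, so a deletion could affect host cells only. The S100a4 promoter is active in fibroblasts and also in some immune cells. Age and sex of the mice were not given in the sources used here. The Y-linked gene Eif2s3y was not well above background in tumours 1 and 4 of the Ext1S100a4Cre hosts and was so in the other 6, so these 2 tumours stand apart in a way the labels do not give. The samples are labelled as tumours from separate transplantations, but nothing ties each to its own animal or says how the hosts were housed, so the p-values measure the spread between these samples.

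Hedgehog ligands are lipid-modified proteins that are secreted by one cell and sensed by its neighbours. Ptch1 holds Smo inactive until a ligand binds, and active Smo then acts through the primary cilium to turn Gli proteins into activators of transcription. Gli1, Ptch1 and Hhip are themselves switched on by the pathway and are used as its readouts. Heparan sulfate chains bind Hedgehog ligands, and in Drosophila the Ext1 homologue is needed for their spread. In the intestine, epithelial cells make the ligands and the mesenchymal cells around them carry most of the response.

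Intensities were placed on a log2 scale relative to the 75th percentile of each array, so that 0 is the signal of a probe at that percentile and the value belongs to a probe, not to a number of transcripts. That percentile was 846.9 to 1138 intensity units in tumours of Ext1S100a4Cre hosts and 1029 to 1265 in those of WT hosts. The share of probes well above background was 65.7% to 70.9% in Ext1S100a4Cre hosts and 68.8% to 71.1% in WT hosts, lowest in tumours 1 and 4 of the Ext1S100a4Cre hosts. The Ext1 probe read -0.46 ± 0.15 in Ext1S100a4Cre hosts and -0.18 ± 0.33 in WT hosts (SD, n = 4 each), a difference of -0.28 (SE 0.18) that did not pass the test (limma adjusted p = 0.747), and whether the probe lies in the deleted part is not given. The labels call the samples colon cancer cells, and all 8 of 8 intestinal epithelial markers were measured. Epcam, Cdh1, Krt8, Krt18, Krt20, Cdx2 and Vil1 were well above background in every tumour. Cdx1 was so in 4 of 4 tumours of the Ext1S100a4Cre hosts and 3 of 4 of the WT hosts. Mean levels in Ext1S100a4Cre and WT hosts were low for Cdx2 (-2.58 and -2.75) and Cdx1 (-3.79 and -5.70). Markers of host cells differed between tumours of the same host. The 14 measured fibroblast genes of 15 listed summed to a level of 19.7 to 201.9 in Ext1S100a4Cre hosts and 120.1 to 530.4 in WT hosts, in units of each array's 75th percentile, and tumours 1 and 4 of the Ext1S100a4Cre hosts had the lowest sums. In bulk tumours, fewer cells of a type and less RNA per cell cannot be told apart.

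The host comparison asked whether the tumours differed in Hedgehog gene expression when the host's S100a4-expressing cells could lose Ext1. None of the 9 genes passed the adjusted threshold of 0.05 (limma, Benjamini-Hochberg over all genes), where 0% of all genes did. Adjusted p-values of the 9 ran from 0.747 to 0.977. At an unadjusted p under 0.05 there was 1 of the 9, Gas1, against 6.55% of all genes. In 0 of the 9 were the 2 hosts without overlap, against 4.53% of all genes. The mean was higher in Ext1S100a4Cre hosts for 7 genes and lower for 2 (5 and 4 on unscaled intensities), with a median difference of 0.26 on the log2 scale, where the median over all genes was 0.05. Of all genes 58.1% had a higher mean in Ext1S100a4Cre hosts (20.8% on unscaled intensities, 70.4% with normexp background correction).

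**Figure D1:**
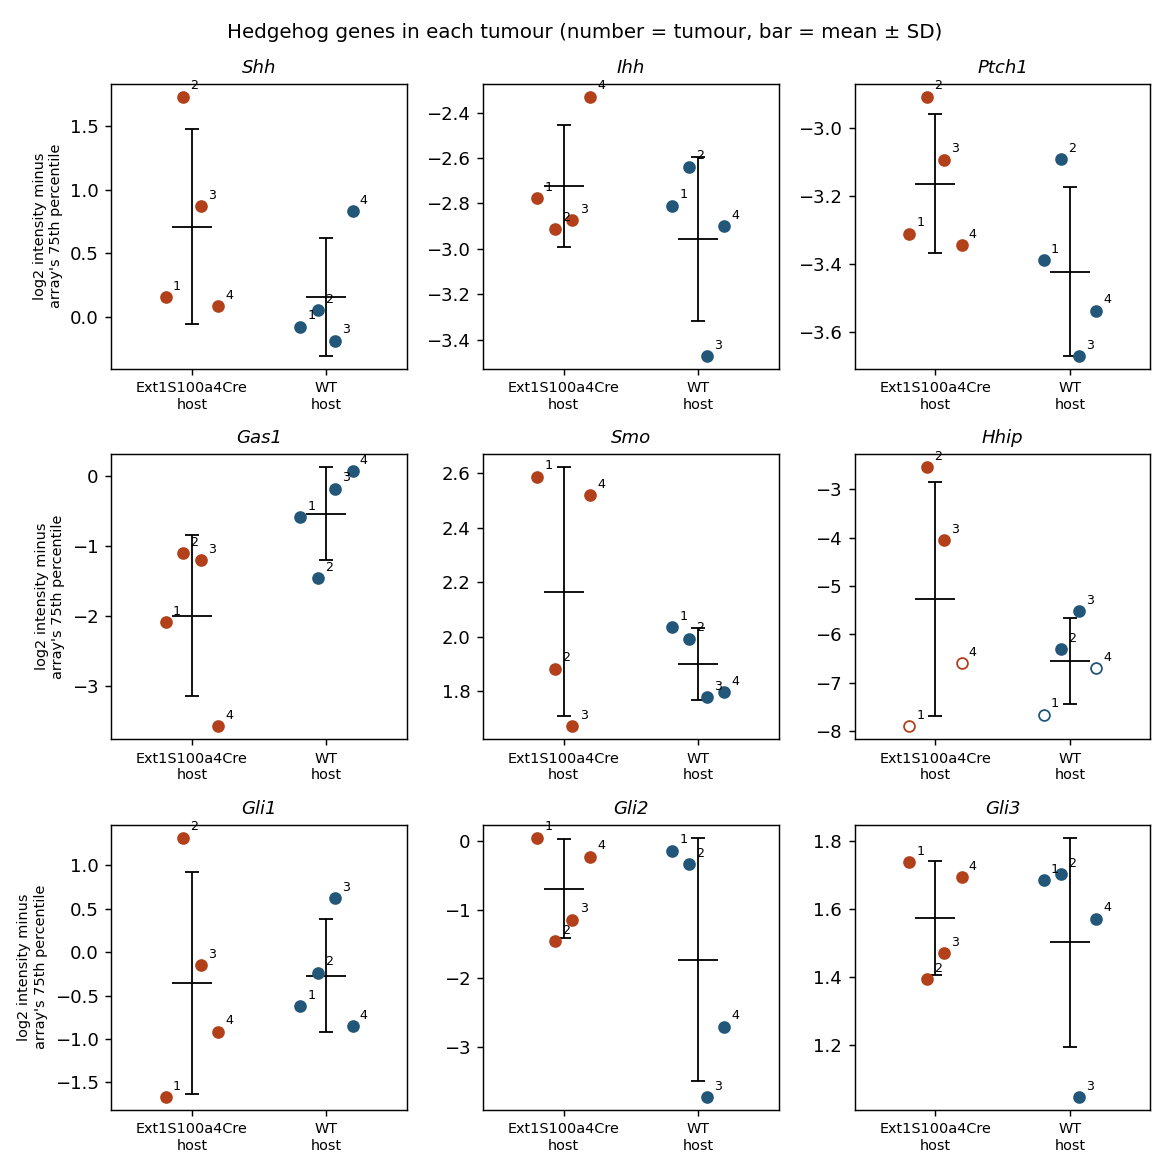
Log2 intensity minus the array's 75th percentile (vertical axes, one scale per gene) of the 9 Hedgehog genes in each tumour, with Ext1S100a4Cre hosts at left and WT hosts at right. Points are tumours with their number, bars are mean ± SD (n = 4 each), and open circles were not well above background, which occurred for Hhip in 2 tumours of each host. The hosts overlap in every panel, and the tumours of 1 host lie far apart for Gli1, Gli2, Gas1 and Hhip.

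Shh, the ligand with the widest range of action in development, was highest in 2 tumours of the Ext1S100a4Cre hosts. Its probe (gene on chromosome 5) read 0.15, 1.73, 0.87 and 0.08 in tumours 1 to 4 of the Ext1S100a4Cre hosts, against -0.08, 0.05, -0.19 and 0.83 in tumours 1 to 4 of the WT hosts. Tumours 2 and 3 of the Ext1S100a4Cre hosts and tumour 4 of the WT hosts stood above the remaining 5, and the hosts overlapped. The means were 0.71 ± 0.77 and 0.15 ± 0.46 (SD, n = 4 each), a difference of 0.56 (SE 0.40, 95% interval -0.36 to 1.48, limma adjusted p = 0.753). The difference was 0.21 without tumour 2 of the Ext1S100a4Cre hosts and -0.038 without their tumours 2 and 3. The mean of the intestinal epithelial markers, each centred over the tumours, was highest in the same tumours, at 0.39 in tumour 2 and 0.27 in tumour 3 of the Ext1S100a4Cre hosts and at 0.36 in tumour 4 of the WT hosts. In the others it ran from -0.30 to 0.11 in Ext1S100a4Cre hosts and from -0.36 to -0.19 in WT hosts. The summed level of these markers did not set tumour 3 of the Ext1S100a4Cre hosts apart. That sum was 67.8, 111.4, 67.7 and 61.6 in tumours 1 to 4 of the Ext1S100a4Cre hosts. In those of the WT hosts it was 64.4, 63.4, 66.1 and 91.9. The part of these markers in the Shh values was not tested.

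Ihh, the ligand made by mature cells of the colon epithelium, varied between tumours about as much as the middle of all genes, more than 51.4% of them. Its probe (chromosome 1) read -2.78, -2.91, -2.87 and -2.33 in Ext1S100a4Cre hosts, against -2.81, -2.64, -3.47 and -2.90 in WT hosts. Tumour 4 of the Ext1S100a4Cre hosts was the highest and tumour 3 of the WT hosts the lowest, with the other 6 between -2.91 and -2.64. The difference was 0.23 (SE 0.22, 95% interval -0.27 to 0.73, limma adjusted p = 0.788). Without tumour 3 of the WT hosts it was 0.06, without tumour 4 of the Ext1S100a4Cre hosts 0.10, and with array weights 0.14.

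Ptch1, the ligand receptor that restrains Smo and is itself a target of the pathway, had 2 probes on the array that did not run together over the tumours. The brighter one (chromosome 13) read -3.31, -2.91, -3.09 and -3.34 in Ext1S100a4Cre hosts, against -3.39, -3.09, -3.67 and -3.54 in WT hosts. Both hosts had their highest value in tumour 2, and they overlapped. The difference was 0.26 (SE 0.17, 95% interval -0.13 to 0.65, limma adjusted p = 0.747), and 0.06 with array weights. The second probe read -4.80, -4.37, -4.38 and -4.73 in Ext1S100a4Cre hosts, against -4.58, -4.78, -4.00 and -4.70 in WT hosts, a difference of -0.06 (SE 0.21, limma adjusted p = 0.953). Tumour 3 of the WT hosts was the lowest on the brighter probe and the highest on the second. The Pearson correlation of the 2 probes over the 8 tumours was -0.20, so any statement on Ptch1 depends on the probe.

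Gas1, a membrane-anchored co-receptor that helps Ptch1 bind the ligand, had the largest negative difference of the 9 genes. Its probe (chromosome 13) read -2.09, -1.10, -1.21 and -3.57 in Ext1S100a4Cre hosts, against -0.59, -1.45, -0.19 and 0.06 in WT hosts. Tumour 4 of the Ext1S100a4Cre hosts was the lowest, and tumour 2 of the WT hosts lay below tumours 2 and 3 of the Ext1S100a4Cre hosts, so the hosts overlapped. The means were -1.99 ± 1.14 and -0.54 ± 0.66 (SD, n = 4 each). The difference was -1.45 (SE 0.58, 95% interval -2.78 to -0.12), a ratio of 0.366, with an unadjusted limma p of 0.0357 and an adjusted p of 0.747. It was -0.57 between the 2 tumours per host of the first slide row and -2.32 in the second. Without tumours 1 and 4 of the Ext1S100a4Cre hosts, those with the lowest fibroblast sums, the difference was -0.61, and without tumours 2 and 3 it was -2.29. Of the 14 fibroblast markers, 14 had a lower mean in Ext1S100a4Cre hosts (13 with median scaling), with a median difference of -1.67 and with Pdgfra (-0.02) and Fbln1 (-0.04) nearest to 0. Dpt was well above background in 2 of 4 tumours of the Ext1S100a4Cre hosts and 4 of 4 of the WT hosts. The other measured fibroblast markers were so in every tumour. Some other host-cell markers also had lower means in Ext1S100a4Cre hosts: 7 of 8 macrophage markers (median difference -1.53), 8 of 8 endothelial markers (-0.56) and 7 of 8 T and B cell markers (-1.19), none of them past the adjusted threshold. Tissue markers with mostly higher means there were those of skeletal muscle (8 of 9, median difference 2.75) and of adipocytes (5 of 7, 0.58). The part of these cells in the Gas1 difference was not tested.

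Smo, the membrane protein that passes the signal inward, was highest at this scaling in the same 2 tumours in which the fibroblast markers were lowest. Its probe (chromosome 6) read 2.59, 1.88, 1.67 and 2.52 in Ext1S100a4Cre hosts, against 2.04, 1.99, 1.78 and 1.80 in WT hosts. Tumours 1 and 4 of the Ext1S100a4Cre hosts lay above all other tumours at this scaling, and tumour 3 of that host lay below all others. On unscaled intensities tumour 4 of the Ext1S100a4Cre hosts (4858) lay below tumour 2 of the WT hosts (5037). The lowest unscaled intensity was that of tumour 3 of the WT hosts (3529). The difference was 0.26 (SE 0.23, 95% interval -0.26 to 0.79, limma adjusted p = 0.775), and it was -0.12 without tumours 1 and 4 of the Ext1S100a4Cre hosts. Without 1 tumour of that host at a time it was 0.12 to 0.43, and on unscaled intensities it was 0.015.

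Hhip, which binds Hedgehog ligands at the cell surface and keeps them from Ptch1, was well above background in only 4 of the 8 tumours. The brighter of its 2 probes (chromosome 8) read -7.90, -2.54, -4.05 and -6.59 in Ext1S100a4Cre hosts, against -7.66, -6.30, -5.52 and -6.70 in WT hosts. The probe was not well above background in tumours 1 and 4 of either host, whose values are therefore only bounds. Among the remaining 4, both tumours of the Ext1S100a4Cre hosts lay above both of the WT hosts. Over all 8 the fitted difference, which takes those 4 values as measured, was 1.28 (SE 1.11, 95% interval -1.29 to 3.84, limma adjusted p = 0.777), and on the second probe it was 1.66 (SE 1.27, limma adjusted p = 0.780). The 2 probes ran together over the tumours, with a Pearson correlation of 0.915.

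Those 2 tumours with high Hhip also held most of the skeletal muscle signal of the series. The 9 measured muscle markers of 10 listed summed to 0.891, 16.2, 29.5 and 1.86 in tumours 1 to 4 of the Ext1S100a4Cre hosts, and to 0.824, 1.29, 0.500 and 0.468 in those of the WT hosts. Mb, myoglobin, was well above background in 4 of 4 tumours of the Ext1S100a4Cre hosts and 1 of 4 of the WT hosts. For Myh1 these counts were 3 and 1, and for Pax7 2 and 2. Acta1, Ckm, Tnnt3, Tnnc2, Actn3 and Ttn were well above background in every tumour of both hosts. Adipocyte markers summed to 1.46, 21.5, 58.2 and 3.18 in the Ext1S100a4Cre hosts and to 4.71, 5.89, 24.2 and 4.76 in the WT hosts. Within each host the tumours with the highest adipocyte sums, 2 and 3 in both, were also those in which Hhip was well above background. With the mean of the centred log2 adipocyte markers this held in the Ext1S100a4Cre hosts but not in the WT hosts. That mean was -1.45, -1.09, 2.01 and -0.68 in tumours 1 to 4 of the WT hosts, highest in tumours 3 and 4. The muscle sums did not follow Hhip within the WT hosts, where tumours 1 and 2 had the highest sums and tumour 3 the highest Hhip value. The part of muscle or fat tissue in the Hhip values was not tested.

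Gli1, the transcriptional activator whose own expression follows pathway activity, differed more between tumours of a host than between hosts. Its probe (chromosome 10) read -1.67, 1.32, -0.15 and -0.92 in Ext1S100a4Cre hosts, against -0.62, -0.24, 0.63 and -0.86 in WT hosts. Both the lowest and the highest of the 8 tumours were in Ext1S100a4Cre hosts, 2.99 log2 units apart, and the WT values lay between them. The means were -0.35 ± 1.28 and -0.27 ± 0.65 (SD, n = 4 each), a difference of -0.08 (SE 0.62, 95% interval -1.52 to 1.35, limma adjusted p = 0.977). The interval leaves room for differences of over 1 log2 unit in either direction. Without tumours 1 and 4 of the Ext1S100a4Cre hosts the difference was 0.86, and without tumour 3 of the WT hosts it was 0.22.

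Gli2, the main activator that responds first to the signal, was low in 2 tumours of the WT hosts. Its probe (chromosome 1) read 0.05, -1.46, -1.15 and -0.23 in Ext1S100a4Cre hosts, against -0.14, -0.34, -3.72 and -2.70 in WT hosts. Tumours 3 and 4 of the WT hosts lay below all others, while their tumours 1 and 2 lay above 2 tumours of the Ext1S100a4Cre hosts. The difference was 1.03 (SE 0.83, 95% interval -0.87 to 2.93, limma adjusted p = 0.768). It was -0.47 in the first slide row and 2.52 in the second, which holds both low tumours. Without tumour 3 of the WT hosts it was 0.36, without tumour 1 of the WT hosts 1.56, and with array weights 0.28.

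Gli3, which acts mostly as the repressor of the pathway in the absence of a ligand, had the smallest SD over the 8 tumours among the 9 genes, 0.23 log2 units. Its probe (chromosome 13) read 1.74, 1.39, 1.47 and 1.70 in Ext1S100a4Cre hosts, against 1.69, 1.70, 1.05 and 1.57 in WT hosts. Tumour 3 of the WT hosts was the lowest, and the other 7 lay between 1.39 and 1.74. The difference was 0.07 (SE 0.18, 95% interval -0.34 to 0.49, limma adjusted p = 0.922), and its direction turned without tumour 3 of the WT hosts.

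**Figure D2:**
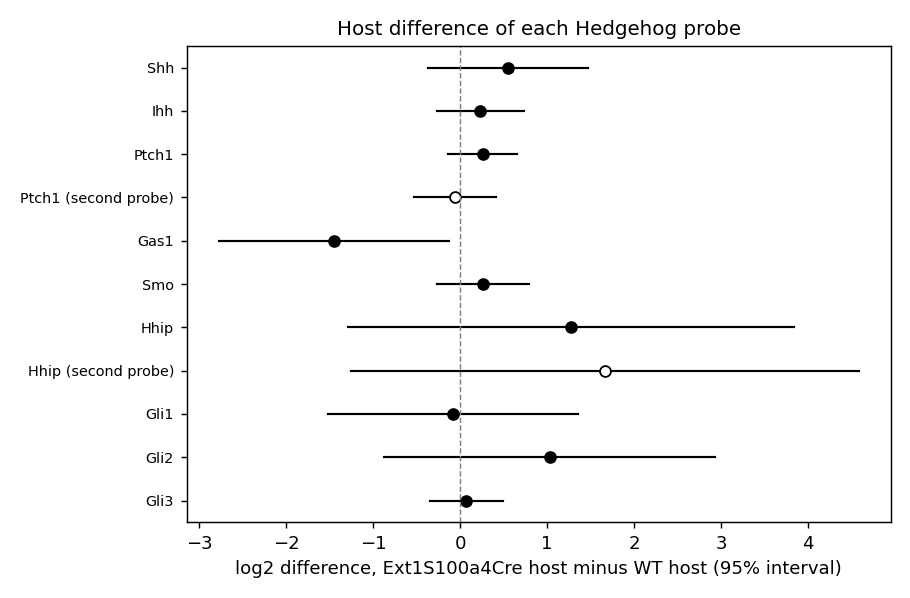
Log2 difference of Ext1S100a4Cre host minus WT host (horizontal axis) for each Hedgehog probe, with limma's 95% interval (n = 4 each). Filled points are the probes used for the gene and open points are second probes. The Gas1 interval, -2.78 to -0.12, is the one that does not reach 0, at an unadjusted p, and those of Hhip and Gli2 are the widest.

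The genes around these 9 were examined through 6 lists with 72 genes in all, of which 67 were measured and Scube3, Lrp2, Ptchd1, Gpr161 and Foxd1 were too dim to be tested. Of the 67, 39 had a higher mean and 28 a lower mean in Ext1S100a4Cre hosts (19 and 48 on unscaled intensities), with a median difference of 0.05, the same to 2 decimals as that of all genes. None passed the adjusted threshold (limma), and 6 had an unadjusted p under 0.05, against 6.55% of all genes: Hhat, Adam17, Ift122, Ccnd2, Grem1 and Bmp2. In 3 of the 67 (Hhat, Ift122 and Spop) the hosts did not overlap at this scaling, against 4.53% of all genes.

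Genes that make or release the ligand were measured for 7 of 8, with 3 higher and 4 lower (2 and 5 on unscaled intensities) and a median difference of -0.17. Hhat, the enzyme that attaches the fatty acid that Hedgehog ligands need for signalling, read -0.60, -0.07, -0.26 and -0.34 in Ext1S100a4Cre hosts, against 0.02, 0.08, 0.04 and -0.02 in WT hosts. All 4 tumours of the Ext1S100a4Cre hosts were below all 4 of the WT hosts, by -0.35 on average (SE 0.14, limma adjusted p = 0.747), but another probe of Hhat had a difference of 0.02. Adam17, a protease that sheds membrane proteins, differed by -0.43 (SE 0.17, adjusted p = 0.747), and Disp1, which releases the lipid-modified ligand from the producing cell, by -0.17 (SE 0.14, adjusted p = 0.765), while another probe of Disp1 gave 0.23. With the mean of each gene's probes the median of the list was 0.03.

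Among the other receptors, Boc, a co-receptor that acts beside Gas1, read -7.29, -2.81, -4.38 and -5.49 in Ext1S100a4Cre hosts, against -4.34, -3.89, -2.86 and -4.15 in WT hosts. The first of these was not well above background, and tumour 2 of the Ext1S100a4Cre hosts was the highest of the 8. The difference was -1.18 (SE 0.87, limma adjusted p = 0.754). Cdon, the third co-receptor of this kind, differed by -0.37 (SE 0.34, limma adjusted p = 0.781).

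Signal transducers were measured for 17 of 18 genes, 13 of them higher and 4 lower (6 and 11 on unscaled intensities). Their median difference was 0.17, and -0.08 on unscaled intensities. Spop, an adaptor for the degradation of Gli proteins, averaged 3.15 ± 0.09 in Ext1S100a4Cre hosts and 2.94 ± 0.09 in WT hosts (SD, n = 4 each). The difference was 0.21 (SE 0.11), without overlap of the hosts at this scaling. Stk36, a kinase of the pathway, differed by 0.36 (SE 0.17) and Prkar1a, the regulatory subunit of protein kinase A, by 0.27 (SE 0.13). The adjusted p was 0.747 for all 3 (limma). All 10 genes of the primary cilium list had a higher mean in Ext1S100a4Cre hosts, with a median difference of 0.26, though on unscaled intensities 5 were higher and 5 lower. The direction also depended on the probe: other probes of Ift172 (-0.13), Arl13b (-0.07), Evc (-0.53), Evc2 (-0.16) and Rpgrip1l (-0.02) gave negative differences, and the median was 0.16 with the mean of each gene's probes. The mean of the cilium genes, each centred over the tumours, was 0.29, -0.04, -0.05 and 0.31 in tumours 1 to 4 of the Ext1S100a4Cre hosts. In those of the WT hosts it was -0.03, -0.05, -0.29 and -0.15. Without tumours 1 and 4 of the Ext1S100a4Cre hosts the median difference was 0.128 for the cilium list and 0.012 for the signal transducers. Ift122, part of the transport machinery that moves proteins back along the cilium, read 0.98, 0.66, 0.71 and 0.96 in Ext1S100a4Cre hosts, against 0.41, 0.40, 0.00 and 0.20 in WT hosts. The hosts did not overlap at this scaling, and the difference was 0.57 (SE 0.15, limma adjusted p = 0.733). Dync2h1, the motor of that transport, differed by 0.30 (SE 0.14) and Rpgrip1l, a protein at the base of the cilium, by 0.57 (SE 0.27).

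Genes described as targets of the pathway in various tissues were measured for 21 of 22, with 10 higher and 11 lower (5 and 16 on unscaled intensities). Ccnd2, a cyclin of the G1 phase, read 5.14, 4.01, 4.67 and 4.75 in Ext1S100a4Cre hosts, against 3.82, 4.08, 3.87 and 3.51 in WT hosts. The hosts overlapped by 1 tumour, and the difference was 0.82 (SE 0.25, limma adjusted p = 0.747), with 0.75 and 0.67 on its other probes. Grem1, a secreted BMP antagonist of mesenchymal cells, read -8.62, -3.44, -7.19 and -8.52 in Ext1S100a4Cre hosts, against -4.45, -3.91, -3.49 and -4.94 in WT hosts. It was well above background in 1 of 4 tumours of the Ext1S100a4Cre hosts, and that tumour, the second, was the highest of all 8. The fitted difference was -2.75 (SE 1.08, limma adjusted p = 0.747), which takes the 3 values not well above background as measured. Bmp2, a BMP ligand, read -4.23, -2.34, -2.91 and -2.04 in Ext1S100a4Cre hosts, against -1.49, -2.27, -1.71 and -1.45 in WT hosts, a difference of -1.15 (SE 0.46, limma adjusted p = 0.747). Among the 10 proteoglycan genes, which carry, build or trim heparan sulfate, 3 were higher and 7 lower (1 and 9 on unscaled intensities). Gpc1, a glypican, differed by 0.25 (SE 0.12) and Gpc5, another, by -0.33 (SE 0.22), the second well above background in 2 of 4 tumours of the Ext1S100a4Cre hosts and 3 of 4 of the WT hosts.

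**Figure D3:**
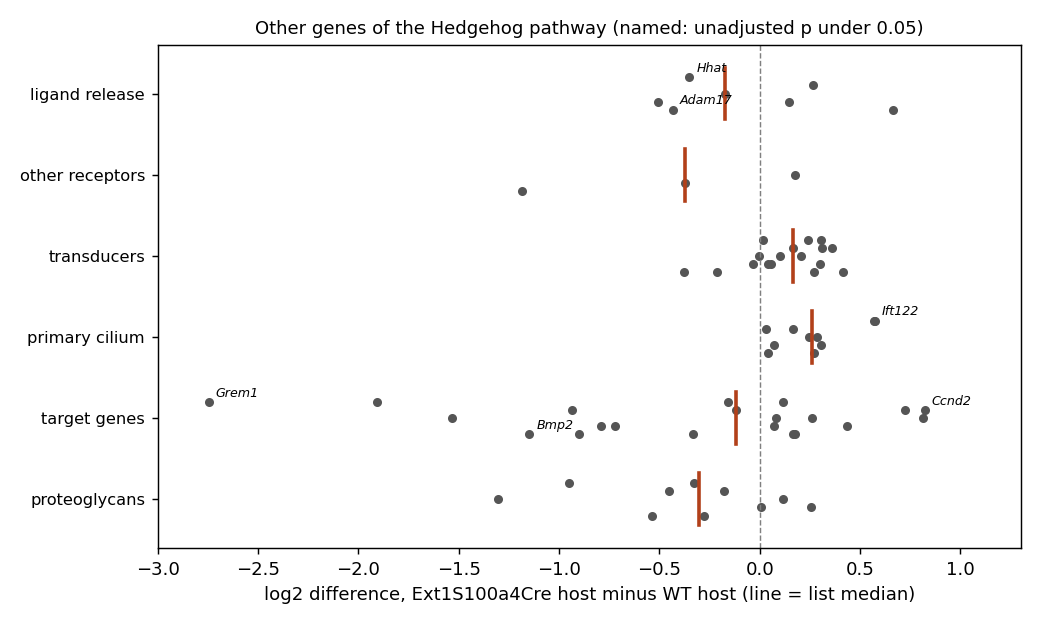
Log2 difference of Ext1S100a4Cre host minus WT host (horizontal axis) of each measured gene in 6 lists around the Hedgehog pathway. Points are genes, the red line is the list's median, and the named genes had an unadjusted p under 0.05. The 10 cilium genes lie above 0 at this scaling and 5 of them on unscaled intensities, and the target genes spread from -2.75 (Grem1, not well above background in 3 of 4 tumours of the Ext1S100a4Cre hosts) to 0.82.

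The members were then set against each other and against the fibroblast markers over the 8 tumours, in 10 relations with exact two-sided permutation tests over pairings (n = 8). The points share the scaling of each array, and the fibroblast axis is the mean of 14 log2 markers, each centred over the tumours. That mean was -3.04, 0.89, 0.21 and -1.02 in tumours 1 to 4 of the Ext1S100a4Cre hosts and 0.05, 0.66, 2.08 and 0.17 in those of the WT hosts. Other host-cell markers followed a similar course: the macrophage mean was -2.89, 0.35, 0.79 and -1.07 in the Ext1S100a4Cre hosts and -0.01, 0.49, 2.22 and 0.12 in the WT hosts, and the endothelial mean was also lowest in tumour 1 of the Ext1S100a4Cre hosts (-1.55) and highest in tumour 3 of the WT hosts (0.85). Relations of the members with those markers were not tested, and nothing here sets fibroblasts apart from them. Gli1 was higher in tumours with more fibroblast marker signal. Pearson's r was 0.819 (exact p = 0.0134, adjusted p = 0.0446) and Spearman's rho 0.929 (exact p = 0.00223, adjusted p = 0.0223). It was 0.923 among tumours of the Ext1S100a4Cre hosts and 0.975 among those of the WT hosts, and 0.831 and 0.910 in the 2 slide rows. Without tumour 1 of the Ext1S100a4Cre hosts and tumour 3 of the WT hosts, the 2 farthest from the median, r was 0.722 (exact p = 0.153, n = 6), which did not pass. The adjusted p was also over 0.05 without any 1 of the 8 tumours, with r between 0.730 and 0.943. Without tumours 1 and 4 of the Ext1S100a4Cre hosts r was 0.662 (exact adjusted p = 0.367, n = 6). Over 14 alternatives the adjusted p was 0.0270 to 0.367 and passed in 2.

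Gli1 and Hhip, both readouts of the pathway, were high in the same tumours. Pearson's r was 0.853 (exact p = 0.00779, adjusted p = 0.0446) and Spearman's rho 0.881 (exact p = 0.00724, adjusted p = 0.0362), although 4 of the 8 Hhip values were not well above background. It was 0.972 within Ext1S100a4Cre hosts, 0.808 within WT hosts, and 0.947 and 0.567 in the 2 slide rows. Without tumours 1 and 2 of the Ext1S100a4Cre hosts r was 0.549 (exact p = 0.263, n = 6), and with the second Hhip probe it was 0.815 (exact adjusted p = 0.0484). Without tumours 1 and 4 of that host it was 0.813 (exact adjusted p = 0.257, n = 6). Over 15 alternatives the adjusted p was 0.0179 to 0.257 and passed in 5. Ptch1, the other readout, gave r = 0.327 with Gli1 on its brighter probe (exact p = 0.431, adjusted p = 0.479, rho 0.262, exact p = 0.536) and 0.747 on its second (exact p = 0.0325, adjusted p = 0.0813, rho 0.833, exact p = 0.0154). Ptch1 with Hhip gave 0.585 on the brighter probe (exact p = 0.127, adjusted p = 0.182, rho 0.429, exact p = 0.299).

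Smo ran the other way from the fibroblast markers, with r = -0.828 (exact p = 0.0102, adjusted p = 0.0446) and rho = -0.738 (exact p = 0.0458, adjusted p = 0.0764). Within hosts r was -0.845 in Ext1S100a4Cre hosts and -0.559 in WT hosts. In the 2 slide rows it was -0.995 and -0.676. Without the 2 tumours farthest from the median it was -0.746 (exact p = 0.119, n = 6), and without tumours 1 and 4 of the Ext1S100a4Cre hosts it was -0.197 (exact p = 0.732, n = 6), so that this relation rested on those 2 tumours. On unscaled intensities r was -0.657 (exact adjusted p = 0.199). Over 14 alternatives the adjusted p was 0.0179 to 0.786 and passed in 2. Gli3 gave r = -0.735 (exact p = 0.0516, adjusted p = 0.121, rho -0.762, exact p = 0.0368) and Gli2 gave r = -0.687 (exact p = 0.0603, adjusted p = 0.121, rho -0.810, exact p = 0.0218). Gas1 gave r = 0.603 (exact p = 0.120, adjusted p = 0.182, rho 0.500, exact p = 0.216), Hhip 0.544 (exact p = 0.164, adjusted p = 0.204, rho 0.810, exact p = 0.0218) and the brighter Ptch1 probe -0.08 (exact p = 0.864, adjusted p = 0.864, rho 0.0952, exact p = 0.840). None of these 5 passed after adjustment. On unscaled intensities r was -0.058 for Gli3 (exact adjusted p = 0.884) and -0.558 for Gli2 (exact adjusted p = 0.209).

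**Figure D4:**
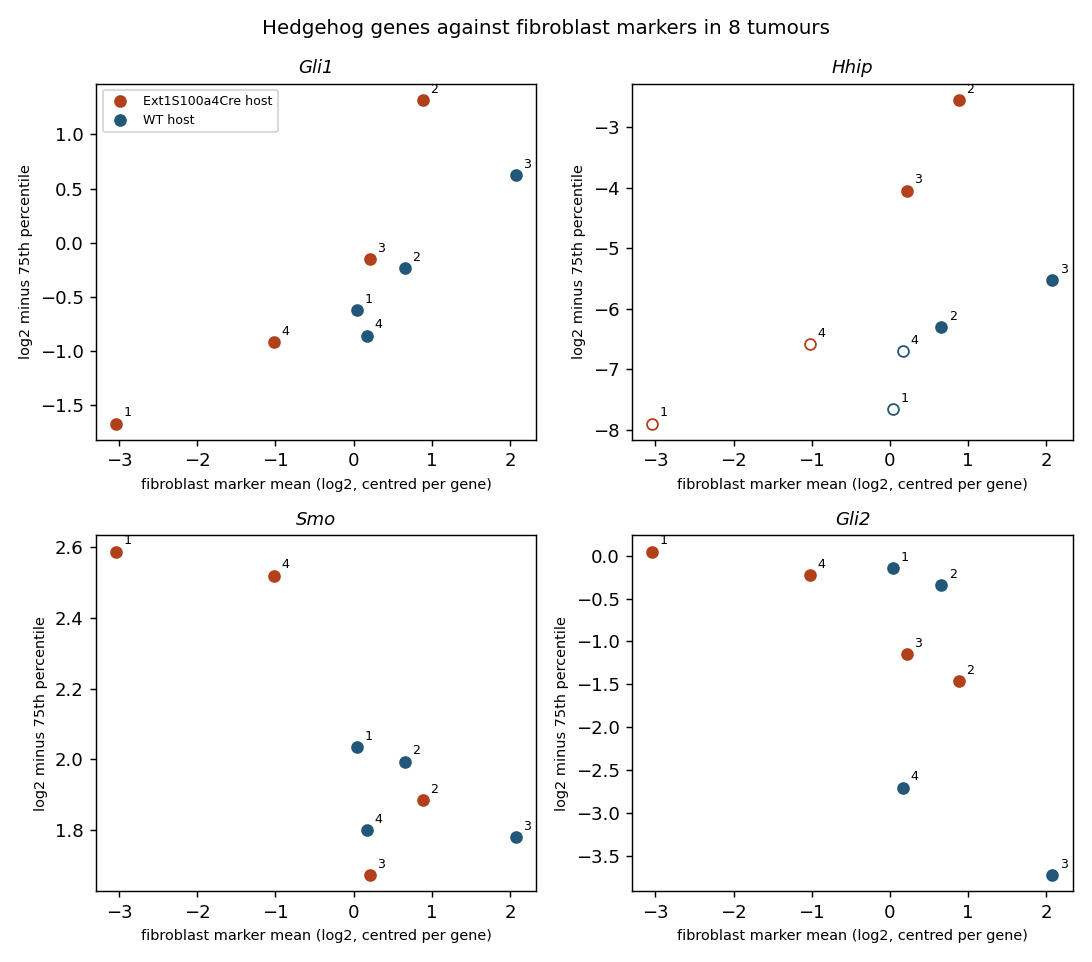
Log2 intensity minus the array's 75th percentile of Gli1, Hhip, Smo and Gli2 (vertical axes) against the mean of 14 fibroblast markers, each centred over the tumours (horizontal axes, log2), in the 8 tumours with their number. Open circles were not well above background. Gli1 lies higher and Smo lower toward the right, with r of 0.819 and -0.828, and tumour 1 of the Ext1S100a4Cre hosts is far to the left in all panels.

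For each gene, the 3 named genes whose pattern over the 8 tumours was most like it were sought among 15508 genes, by Pearson's r as a description with no test. With 8 points and so many genes, values near 1 occur readily. Shh was nearest to Adh1, an alcohol dehydrogenase (0.994), Slc17a9, a nucleotide transporter (0.985), and Cpne5 (0.977). Ihh was nearest to Zzef1 (0.964), Fam71f2 (0.964) and Mrm1 (0.958). Ptch1 was nearest to Wdr63 (0.966), Shc3 (0.959) and Adrb1, a beta-adrenergic receptor (0.938). Genes most like Gas1 included Tfap2b, a transcription factor (0.967), and Btc, an EGF receptor ligand (0.966). Smo was nearest to Ndufa12, a subunit of mitochondrial complex I (0.994), Ube2j2, a ubiquitin-conjugating enzyme (0.990), and Fundc2 (0.986).

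Hhip was nearest to Gal3st2, a sulfotransferase (0.985), Pdk4, a kinase that restrains glucose oxidation in muscle and other tissues (0.981), and Hspb1, a small heat shock protein (0.974). Gli1 was nearest to Tor1aip1, a protein of the nuclear envelope (0.987), Eva1b (0.986) and Inafm1 (0.968). Gli2 was nearest to Pdzrn4 (0.993), Jpt2 (0.991) and Cdh3, P-cadherin (0.986). Gli3 was nearest to Polr2b, a subunit of RNA polymerase II (0.990), Abhd17b (0.985) and Trappc1 (0.984). No gene was among the 3 nearest of more than 1 member.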

How the data were processed

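Spot intensities came from scanner files that, per the file headers, Agilent Feature Extraction 10.7.3.1 made with the background subtracted and detrended; the submitters' processing notes name version 9.1. The other deposited columns used were flags for spots above background, saturated or outlying. The deposited series matrix holds the same intensities, unscaled. The headers name build mm9, so a RefSeq table of assembly GRCm38.p6 served only for gene names and chromosomes; it named 32994 probes and left 23611 unnamed. Log2 intensity minus each array's 75th percentile was computed here without control spots. Outlier spots were left out of the probe values but not of the percentile. The 39716 probes whose flag put them above background on 4 or more of the 8 arrays were kept, and a gene took its probe with the highest mean. Hosts were compared with limma 3.58.1 (lmFit, eBayes) in R 4.3.3 without covariates, with Benjamini-Hochberg adjustment over 31281 genes and a threshold of 0.05; the procedure was tested on simulated data. No spot was saturated, and the number of arrays limits the precision.

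The members, the lists and the 10 relations were chosen with earlier results of these data known. The text names all members, each list's genes with an unadjusted p under 0.05 (filled up to 3 by smallest p), and 3 most similar genes per member, except for a few results that are not reported here. Same-numbered tumours of the 2 hosts were checked for shared deviations, which numbers 1 and 3 showed and numbers 2 and 4 did not. No pairing is known, so the main fit used none. The 8 arrays lay on 1 slide in 2 rows, each with 2 tumours per host. Alternatives covered background correction, scaling, the filter, probes per gene, blocks, weights and left-out tumours. No sequences are shown, since the tables used hold none.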

Additional observations from a re-analysis of the deposited data

Results flagged for a closer look

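Of 54 groups of 4 tumours examined, over the 9 Hedgehog genes and the named genes around them, 1 had a tumour far from its other 3, where chance flags about 1 group in 20. Spop read 3.27 in tumour 3 of the Ext1S100a4Cre hosts, against 3.09 to 3.12 in the other 3 tumours of that host, a gap of 0.878 of the group's range.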

How the results depend on the processing

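No member passed the adjusted threshold under any alternative (limma). The whole fit had 1 gene past it with normexp background correction, 1 with array weights, 0 to 2 with 1 tumour left out (2 without tumour 3 of the WT hosts) and 11 without tumours 1 and 4 of the Ext1S100a4Cre hosts. These 11, seen after the fact, include the muscle genes Tcap, Mybpc1, Myl3, Tnnc2, Acta1 and Mb. Members with an unadjusted p under 0.05 numbered 3 with normexp (Gas1, Hhip and Ptch1), 0 with the replicate block, 0 to 1 with 1 tumour left out (0 without tumour 1 or 4 of the Ext1S100a4Cre hosts or tumour 1, 3 or 4 of the WT hosts), 2 without tumours 1 and 4 of the Ext1S100a4Cre hosts (Shh and Hhip) and 2 without tumours 2 and 3 (Gas1 and Smo). The same numbers in both hosts mark no known pair, and the values were mixed. The replicate block gave 3241 genes with an unadjusted p under 0.05 (limma), against 2049 without it. The correlations of same-numbered tumours were 0.493, -0.16, 0.591 and -0.25 for numbers 1 to 4. Whether the numbers pair tumours cannot be told from these values.

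Unscaled intensities moved the median of all genes to -0.20. The members' median was 0.0081 there, or 0.21 above that of all genes, as with the main scaling, and Ihh (-0.018) and Gli3 (-0.18) turned negative. The members' median was 0.421 without tumours 1 and 4 of the Ext1S100a4Cre hosts, where that of all genes was 0.00038. It was 0.0947 without tumours 2 and 3, where that of all genes was 0.105, so the members no longer lay above all genes. They lay 0.088 above with array weights and 0.128 above with normexp. The fitted Hhip value was -0.70 without tumours 2 and 3 of the Ext1S100a4Cre hosts, but the 2 tumours left of that host were not well above background, so it shows no direction. Directions also turned for Shh (-0.038) without tumours 2 and 3, for Smo (-0.12), Gli1 (0.86) and Gli3 (-0.070) without tumours 1 and 4, for Ptch1 on its second probe (-0.057) and for Gli3 with array weights (-0.030). With 1 tumour left out, Gli1 ran from -0.64 to 0.36 (0.22 without tumour 3 of the WT hosts, 0.36 and 0.11 without tumours 1 and 4 of the Ext1S100a4Cre hosts) and Gli3 from -0.079 (without tumour 3 of the WT hosts) to 0.14. Gas1 kept its direction throughout, from -2.29 to -0.61.

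The fibroblast relation of Ptch1 turned positive on unscaled intensities (0.370), with the mean of its probes (0.538), without tumour 3 of the WT hosts (0.393) and, chosen after seeing the data, on its second probe (0.725); that of Gli1 with Ptch1 was -0.19 without tumour 2 of the Ext1S100a4Cre hosts. With 1 tumour left out they ran from -0.30 to 0.393 and from -0.19 to 0.785. With the mean of the probes, Gli1 with Ptch1 (0.864) and Ptch1 with Hhip (0.949) passed. Of all relations and alternatives, 104 kept direction and call, 34 lost the call, 5 turned and 2 gained it. Only relations that passed with the main settings could lose the call. Of these, Gli1 with Hhip passed in 5 of 15 alternatives, and the fibroblast markers with Gli1 and with Smo in 2 of 14 each. The causes were not tested.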
